A study of Xenopus laevis with 3 samples.

Results

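Heads of Xenopus laevis tadpoles injected with a morpholino against the protein kinase MLTK were set directly against heads of tadpoles injected with one against the transcription factor Sox6. The comparison holds the 1 array with treatment label xMLTK-MO and the 1 array with treatment label xSox6-MO, 2 of the 3 arrays of the series, chosen by that label. Both groups had received 10 ng of morpholino per cell in the animal pole of all blastomeres early in cleavage, and at 72 hours of development, about stage 41, their heads were taken. The remaining array holds heads given the same dose of CoMO, a name that the labels do not spell out. CoMO entered no difference given here, and its values stand last in a sentence as a further level. Where they are printed, the array called low or high, or the order of arrays, is read over all 3. CoMO too is 1 array, so such a reading does not show which knockdown changed a gene. How many heads or clutches went into an array, and the morpholino sequences, are not given in the sources used here. Each difference is the log2 intensity in xMLTK-MO minus that in xSox6-MO, and no p-value, SD or interval exists for it, because each side is 1 array. The values describe these arrays and cannot be set against a spread between embryos.

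MLTK, encoded by map3k20, is a kinase at the top of the stress-activated MAP kinase cascades that lead to p38 and JNK. Sox6 is a SoxD protein, which in mouse cartilage works beside Sox9 on the genes of cartilage matrix. A morpholino is a synthetic oligonucleotide that binds an RNA and blocks its translation or splicing. By the stage collected, the swimming tadpole has a working eye with rods, cones and a fibre-filled lens, head cartilages that are being laid down, and behind the head the first differentiated cells of pancreas, liver and gut.

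The loss of either protein was not measured here, and neither target RNA was followed, as map3k20 and sox6 were each named by 0 probe sets with 1 symbol. Probe sets with several symbols or none were not searched for these targets. Both arrays had nearly the same distribution, with a median intensity of 91.1 in xMLTK-MO and 89.8 in xSox6-MO. The brightest of 23 negative control probe sets read 26.2 in xMLTK-MO and 21.0 in xSox6-MO, and the part of this gap in the differences of dim genes was not tested. A gene is called above the controls here when it exceeded that value on at least 1 of the 2 arrays. The ratio of the 3' to the 5' probe set of ef1a, which grows with RNA degradation, was 8.58 in xMLTK-MO, 5.61 in xSox6-MO and 5.33 in CoMO. That of gapdh was 1.99 in xMLTK-MO, 2.16 in xSox6-MO and 1.85 in CoMO. That of actin was 3161 in xMLTK-MO, 2659 in xSox6-MO and 3115 in CoMO, with its 5' probe set far below the controls, at 5.73 in xMLTK-MO, 6.66 in xSox6-MO and 5.70 in CoMO. The part of RNA quality in the results was not tested.

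Of 11303 genes with a symbol, 7253 averaged 6.5 or more in log2 intensity over this pair of arrays, the median of all probe sets, and were used for counts over all genes. A difference of 2-fold or more was found for 53 genes, or 0.731%, and 99.27% lay within 2-fold. In 38 genes, or 0.524%, xMLTK-MO was the higher array, and in 15 genes, or 0.207%, the lower one. At any size, 48.1% of the genes were higher and 51.9% lower in xMLTK-MO. The median difference was -0.01, with an SD over genes of 0.28. Among the genes at least 2-fold higher in xMLTK-MO were crystallins of the lens, digestive enzymes of the pancreas, gut genes and cone photoreceptor genes. Among the 15 at least 2-fold lower, 3 belonged to any of 54 gene lists, against 21 of the 38 higher genes. How many of all 7253 genes belong to a list was not counted, and the lists were chosen with earlier results known. These counts therefore give no measure of how coherent either group is. The plot of difference against level places most of the 53 genes above the bulk of the others.

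**Figure D1:**
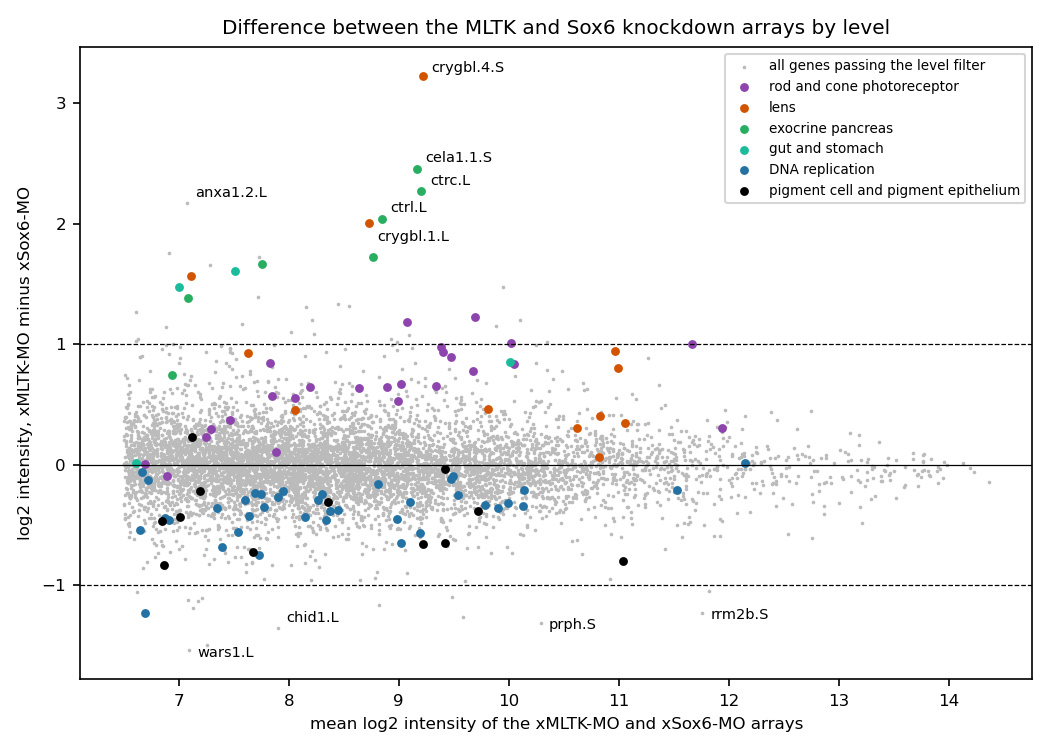
Each grey point is one of 7253 genes, with the mean log2 intensity of the 2 arrays on the x axis and the log2 difference, xMLTK-MO minus xSox6-MO, on the y axis. Coloured points are members of 6 gene lists and dashed lines mark 2-fold. The crystallin gene crygbl.4.S has the largest difference, 3.23, and wars1.L the most negative, -1.54.

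Internal measures of precision come from spiked controls and from the probe sets of one gene. The differences of 27 hybridisation controls lay between -0.09 and 0.23, and those of 36 poly-A controls, added to the RNA before labelling, between -0.17 and 0.43. For 1233 genes with several probe sets above the level filter, the differences of probe sets of a gene had a pooled SD of 0.20, which holds probe error but no error between embryos. X. laevis carries many genes as homeologs, marked .L or .S for the subgenome that carries them. In 808 of 1169 homeolog pairs, 69.1%, both copies differed in the same direction, and the differences of .L and .S copies had a Pearson r of 0.501 across pairs. Homeologs share sequence and may share probes, and genes are not independent replicates. In 9 of the 11 pairs with a copy at least 2-fold apart, the other copy differed in the same direction, and in 1 pair, pde6h, both copies were past 2-fold. Of the 53 genes past 2-fold, 35 of the higher and 14 of the lower ones rest on 1 probe set.

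Of the 54 lists, 48 had at least 5 members above the controls. The median difference of those members was 0.25 or more in 9 lists and -0.25 or less in 3 lists. The other 36 lists had medians between -0.24 and 0.17. A median of 0.002 was found over all 9714 genes above the controls, of which 50.3% were higher in xMLTK-MO and 49.7% lower. Past 2-fold, 0.628% of them were higher and 0.288% lower, 0.916% in all. The value 0.25 was chosen after the medians had been seen and serves only to order the description.

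**Figure D2:**
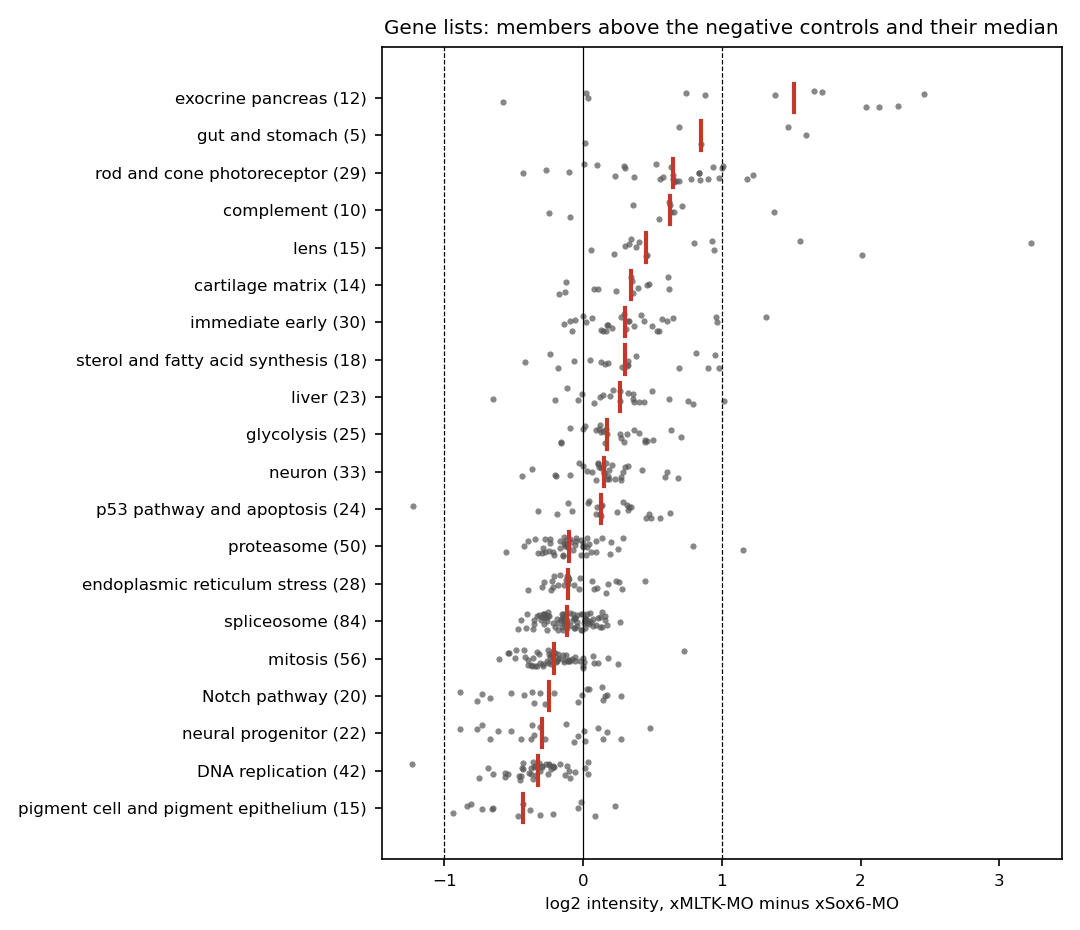
Each point is a gene brighter than the controls in xMLTK-MO, xSox6-MO or both, placed by its log2 difference, xMLTK-MO minus xSox6-MO, and red bars are list medians. The 12 lists with the highest and the 8 with the lowest medians are shown, with the number of genes in brackets, from exocrine pancreas at 1.52 to pigment cell and pigment epithelium at -0.43. Dashed lines mark 2-fold.

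Photoreceptor genes were higher in xMLTK-MO than in xSox6-MO. Of 33 measured genes, 29 were above the controls, 26 of these were higher and 3 lower, and the median difference was 0.65. Past 2-fold there were 4 higher genes and 0 lower ones, and arr3.L and gnat2.S among them were just under 2-fold, at 0.97 and 0.98, when centred on hybridisation controls. The 4 genes past 2-fold are all genes of cone phototransduction, the cascade in which a light-struck opsin drives transducin to activate a phosphodiesterase. Summed over the 33 genes, the intensity was 23661 in xMLTK-MO, 14421 in xSox6-MO and 24355 in CoMO. The recoverin copies rcvrn.2.L and rcvrn.2.S, missed by the list's symbol rcvrn and not among the 33, differed by 0.97 and 0.51. In bulk tissue, fewer cells of a type and less RNA per cell cannot be told apart, here and in each list below.

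The gene of the inhibitory cone phosphodiesterase subunit, pde6h.L, had an intensity of 1264 in xMLTK-MO, 540.3 in xSox6-MO and 1105 in CoMO. Its homeolog pde6h.S had 815 in xMLTK-MO, 359 in xSox6-MO and 731 in CoMO. For both copies the xSox6-MO array was the low one, and xMLTK-MO was 2.34-fold and 2.27-fold higher than xSox6-MO. Cone transducin, gnat2.S, had an intensity of 1471 in xMLTK-MO, 732 in xSox6-MO and 1226 in CoMO. Cone arrestin, arr3.L, which shuts off the activated opsin, read 4609 in xMLTK-MO, 2302 in xSox6-MO and 3487 in CoMO. These are differences of 1.01 and 1.0, again with the low value in xSox6-MO. The short-wavelength cone opsin gene opn1sw.L differed by 0.90, the long-wavelength opsin gene opn1lw.L by 0.78 and gnb3.L, the beta subunit of cone transducin, by 0.84. The homeolog gnb3.S differed by only 0.23.

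Most rod genes were also higher in xMLTK-MO, by less than 2-fold. Rod arrestin, sag.S, had an intensity of 935 in xMLTK-MO, 489 in xSox6-MO and 1291 in CoMO, a difference of 0.94, and sag.L differed by 0.65. The rod transducin copies gnat1.L and gnat1.S differed by 0.67 and 0.65, and the disc rim gene copies rom1.S and rom1.L by 0.84 and 0.65. For all of these the CoMO array was the brightest of the 3 and xSox6-MO the dimmest. The outer segment transporter gene abca4.L differed by 0.98, and the axoneme gene rp1.L by 0.84. Smaller values were found for gngt1.L, the gamma subunit of rod transducin, at 0.30, and for the rhodopsin kinase gene grk1.L at 0.30. The photoreceptor transcription factor crx differed by 0.10 for crx.L and by less than 0.01 for crx.S. Lower in xMLTK-MO were guanylate cyclase activator guca1a.S at -0.43, prph2.L at -0.27 and the rod phosphodiesterase gene pde6b.L at -0.10, whereas guca1a.L and prph2.S differed by 0.56 and 0.37.

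Lens genes followed the same direction and held the largest difference among genes with a symbol. Of 21 measured genes, 15 were above the controls and all 15 read higher in xMLTK-MO, 3 of them at least 2-fold, and their median difference was 0.45. Crystallins are the densely packed proteins that give the lens its refractive power. The gamma-type crystallin gene crygbl.4.S had an intensity of 1826 in xMLTK-MO, 195 in xSox6-MO and 5722 in CoMO, 9.37-fold higher in xMLTK-MO than in xSox6-MO. Its 2 probe sets gave differences of 3.71 and 2.75, the smaller one from a probe set of the class whose probes can match other sequences. The related gene crygbl.1.L read 851 in xMLTK-MO, 211 in xSox6-MO and 1519 in CoMO, and the alpha crystallin gene cryaa.S 237 in xMLTK-MO, 80.3 in xSox6-MO and 342 in CoMO. CoMO was highest, xMLTK-MO second and xSox6-MO lowest for these 3 genes, whose close paralogs may share probes.

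The beta crystallin genes were spread more narrowly. cryba2.S differed by 0.94, cryba1.L by 0.80, cryba4.S by 0.41, crybb1.L by 0.35 and crybb1.S by 0.06. The beaded filament gene bfsp1.L, a cytoskeletal component of lens fibres, had an intensity of 273 in xMLTK-MO, 143 in xSox6-MO and 362 in CoMO. Fibre membrane genes differed less, with the water channel gene mip.L at 0.46, its homeolog mip.S at 0.33 and lim2.L at 0.30. Over the 21 genes the summed intensity was 18360.0 in xMLTK-MO, 11472 in xSox6-MO and 24618 in CoMO.

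**Figure D3:**
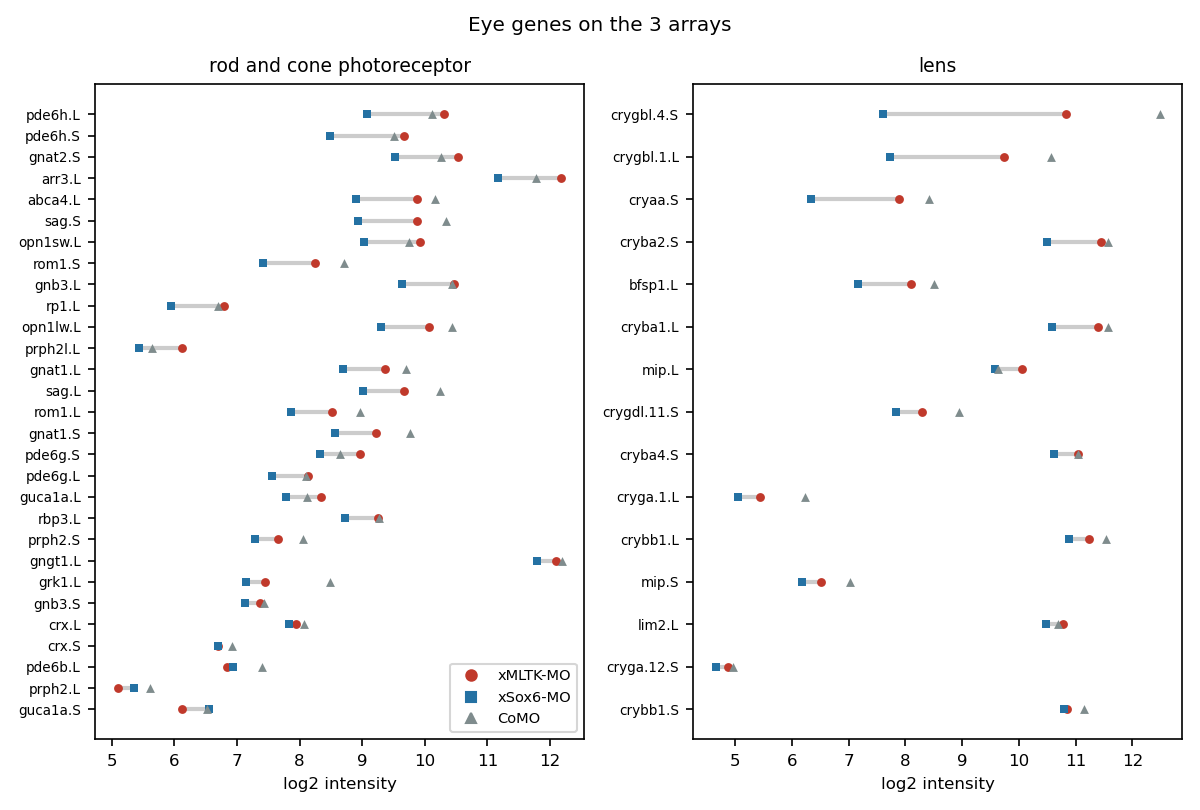
Log2 intensity of photoreceptor genes (left, 29 genes) and lens genes (right, 15 genes) that exceeded the controls in either knockdown, sorted by xMLTK-MO minus xSox6-MO. Red circles are xMLTK-MO, blue squares xSox6-MO and grey triangles CoMO, 1 array each. The xSox6-MO square lies left of the xMLTK-MO circle for 26 photoreceptor and 15 lens genes.

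Not every list that holds eye genes went this way. Of 16 genes of pigment cells and the retinal pigment epithelium, 15 were above the controls, 13 of them lower in xMLTK-MO and 2 higher, 0 past 2-fold, with a median of -0.43. The melanin synthesis gene tyrp1.L had an intensity of 1592 in xMLTK-MO, 2779 in xSox6-MO and 2259 in CoMO, a difference of -0.80. The melanosome genes gpr143.S, slc45a2.L and pmel.S differed by -0.93, -0.83 and -0.66. The visual cycle isomerase of the pigment epithelium, rpe65, read 546 in xMLTK-MO, 857 in xSox6-MO and 961 in CoMO for rpe65.L, and 159 in xMLTK-MO, 262 in xSox6-MO and 253 in CoMO for rpe65.S. On both copies xMLTK-MO was the low array. The receptor kinase gene of pigment cells, kit.S, stood at 0.23, and kit.L at -0.01.

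The inner retina list had 6 genes above the controls, 1 higher and 5 lower, with a median of -0.05. The bipolar cell factor vsx1.L had the most negative value, -0.52. The glutamine synthetase gene glul, of Müller glia and astrocytes, differed by 0.20 for glul.L and -0.03 for glul.S.

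Digestive organ genes were the other large group higher in xMLTK-MO. Of 30 measured genes of the exocrine pancreas, 12 were above the controls, of which 11 were higher, 7 of them past 2-fold, and 1 was lower, and the median was 1.52. The remaining 18 were above the controls on neither array, and over all 30 genes the median was 0.26. Pancreatic acinar cells make digestive enzymes, most of them as inactive precursors. The elastase gene cela1.1.S had an intensity of 1342 in xMLTK-MO, 245 in xSox6-MO and 89.6 in CoMO. The chymotrypsin-type genes ctrc.L and ctrl.L read 1298 and 932 in xMLTK-MO, against 269 and 226 in xSox6-MO and 136 and 131 in CoMO. Each of these 3 genes was brightest in xMLTK-MO, second in xSox6-MO and dimmest in CoMO, with xMLTK-MO 5.49-fold, 4.82-fold and 4.12-fold over xSox6-MO.

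pdia2.L and cel.2.S showed the same order with smaller folds. The pancreatic disulfide isomerase gene pdia2.L was 3.30-fold higher in xMLTK-MO than in xSox6-MO, and cel.2.S, a lipase that needs bile salts, 3.17-fold. Chymotrypsinogen ctrb1.L had one bright probe set, at 4453 in xMLTK-MO, 983 in xSox6-MO and 449 in CoMO, and one below the controls on every array. The difference of the bright probe set was 2.18, and the mean of both, used for the gene, was 1.38. The carboxypeptidase gene cpa1.L was not above the controls in xSox6-MO and was at least 2.80-fold higher in xMLTK-MO. It entered the count through the xMLTK-MO array alone. The acinar transcription factor gene ptf1a, also used in hindbrain and retina, differed by 0.88 and the trypsinogen gene prss2.L by 0.74, while prss1.L and pnliprp1.S were at 0.04 and 0.02. The pancreatic lipase gene pnlip.L went the other way, with 48.4 in xMLTK-MO, 72.3 in xSox6-MO and 11.3 in CoMO. That CoMO value was below the highest negative control of its array, 23.3.

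Among endocrine pancreas genes the 2 insulin copies were higher in xMLTK-MO. ins.L had an intensity of 175 in xMLTK-MO, 79.4 in xSox6-MO and 12.3 in CoMO, and ins.S had 245 in xMLTK-MO, 128 in xSox6-MO and 11.4 in CoMO. The insulin values in CoMO were below its highest negative control. The zinc transporter gene of beta cells, slc30a8.L, and the transcription factor gene nkx2-2.S were slightly lower, at -0.30 and -0.33. The somatostatin copies sst.1.L and sst.1.S, missed by the list's symbol sst, differed by 0.24 and 0.16.

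Of 9 gut and stomach genes, 5 were above the controls and all 5 read higher in xMLTK-MO, 2 of them at least 2-fold, with a median of 0.85. The intestinal fatty acid binding protein gene fabp2.L had an intensity of 317 in xMLTK-MO, 104 in xSox6-MO and 126 in CoMO. The gastric protease gene ctse.S, cathepsin E, read 214 in xMLTK-MO, 76.8 in xSox6-MO and 34.1 in CoMO, and its homeolog ctse.L differed by 0.85. The brush border gene vil1.S stood at 0.69 and the aminopeptidase gene anpep.L at 0.01. Outside the lists, atp4a.S, the acid pump of the stomach, was 3.30-fold higher, rbp2.L, the retinol binding protein of the intestine, 3.38-fold and lgals4.1.L, a galectin of the gut, 2.52-fold higher in xMLTK-MO than in xSox6-MO.

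Liver genes were higher by smaller amounts. Among 23 detected above the controls, 18 were higher and 5 lower, with a median of 0.27 and 1 gene past 2-fold. That gene, the apolipoprotein gene apoa1.L, had an intensity of 1857 in xMLTK-MO, 919 in xSox6-MO and 1796 in CoMO, and apoa1.S differed by 0.62. Centred on hybridisation controls, apoa1.L was just under 2-fold, at a difference of 0.99. Others were apoh.L at 0.79, ahsg.L at 0.75 and the prothrombin gene f2.L at 0.44, against fgb.L at -0.11, fga.S at -0.04 and serpina1.S at -0.20. The homeolog serpina1.L was higher, at 0.20. The fibrinogen gene fga.L had the most negative difference of the list, -0.65, with 16.9 in xMLTK-MO, below the controls there, and 26.5 in xSox6-MO, and it entered the count through the xSox6-MO array alone. The list names cyp3a4, but matching by symbol missed cyp3a4.2.L, which is in none of these counts. It read 701 in xMLTK-MO, 340 in xSox6-MO and 127 in CoMO, a difference of 1.04. The related gene cyp3a5.L, in no list, differed by 1.08. Complement genes, which the liver supplies to the blood, had 8 of 10 genes above the controls higher and a median of 0.62. c4a.L, dimmer than the level filter, was 2.60-fold higher, and c9.L, c8a.L, c7.S, c2.L and c3.L differed by 0.71, 0.66, 0.63, 0.63 and 0.62. The protease genes cfd.L and cfi.S were at -0.09 and -0.24.

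Pancreas, liver and gut lie behind the head, so markers of the trunk were read beside them. Of 12 posterior Hox genes, 10 were above the controls on neither array, hoxd8.L read 80.4 in xMLTK-MO, 49.3 in xSox6-MO and 47.3 in CoMO, and hoxd13.S exceeded the controls by a narrow margin in xSox6-MO. Of 4 pronephros genes, the glucose transporter gene slc5a2.L had 236 in xMLTK-MO, 119 in xSox6-MO and 64.9 in CoMO, nphs1.S differed by 0.43 and lhx1.L by -0.30. The summed intensity of the posterior Hox list was 199 in xMLTK-MO, 156 in xSox6-MO and 151 in CoMO. With 10 of 12 genes not above the controls, this sum holds background and is no measure of trunk tissue. The highest negative control was itself brighter in xMLTK-MO, at 26.2 against 21.0 in xSox6-MO. The part of the tissue carried behind the head in the differences of digestive organ genes was not tested.

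**Figure D4:**
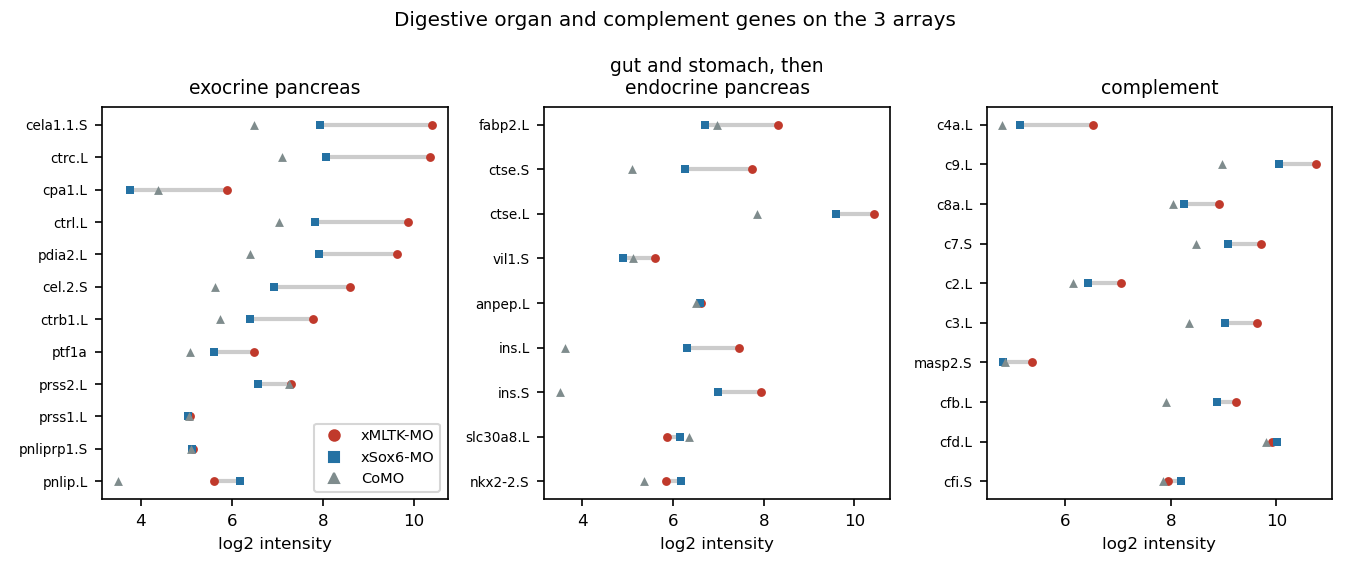
Log2 intensity of exocrine pancreas genes (left, 12 genes), gut and stomach genes followed by endocrine pancreas genes (middle, 9 genes) and complement genes (right, 10 genes) above the negative controls. Red circles are xMLTK-MO, blue squares xSox6-MO and grey triangles CoMO, 1 array each. For the pancreatic enzyme genes cela1.1.S, ctrc.L, ctrl.L, pdia2.L and cel.2.S the circle lies furthest right and the triangle furthest left.

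Genes of DNA replication were lower in xMLTK-MO than in xSox6-MO. Of 46 measured genes, 42 were above the controls, 39 of them lower and 3 higher, with a median of -0.33 and 1 gene at least 2-fold lower. The smallest subunit of the single-strand binding protein RPA, rpa3.S, had an intensity of 67.4 in xMLTK-MO, 158 in xSox6-MO and 130.3 in CoMO, whereas rpa3.L differed by -0.25. The DNA ligase gene lig1.L read 164 in xMLTK-MO, 275 in xSox6-MO and 267 in CoMO. The replicative helicase genes mcm4.S, mcm5.L, mcm4.L, mcm7.L and mcm2.L differed by -0.68, -0.65, -0.45, -0.35 and -0.32, and the origin licensing genes cdc6.L and cdt1.L by -0.54 and -0.36. Near 0 were pcna.L, the sliding clamp, at 0.01, and e2f1.L and ccne1.L, both at 0.04. The homeolog pcna.S was lower, at -0.21.

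Mitosis genes were mostly lower too, and by less. Of 56 above the controls 48 were lower and 8 higher, with a median of -0.21 and 0 past 2-fold. The anaphase activator gene cdc20.S differed by -0.61 and its homeolog cdc20.L by -0.11. The separase gene espl1.S differed by -0.54, the Aurora B copies aurkb.S and aurkb.L by -0.53 and less than 0.01, and the proliferation marker gene mki67.S by -0.40. The phosphatase gene cdc25c.L stood apart at 0.73, with 583 in xMLTK-MO, 352 in xSox6-MO and 297 in CoMO.

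Neural progenitor genes were lower in xMLTK-MO for 15 of 22 genes above the controls and higher for 7, with a median of -0.29 and 0 past 2-fold. Its most negative values were those of hes5 copies, which encode a repressor switched on by Notch in dividing neural precursors. hes5.1.L had an intensity of 328 in xMLTK-MO, 606 in xSox6-MO and 374 in CoMO, and hes5.1.S had 146 in xMLTK-MO, 248 in xSox6-MO and 181 in CoMO. For both copies the high array was xSox6-MO. The copies hes5.6.L, hes5.5.S and hes5.7.L differed by -0.73, -0.67 and -0.52, and hes5.10.L by 0.17. These tandem copies resemble each other and may share probes. The radial glia fatty acid binding protein gene fabp7.L read 5616 in xMLTK-MO, 8581 in xSox6-MO and 9236 in CoMO, with xMLTK-MO as the low array. sox3.S and sox3.L, transcription factor genes of the neural plate and its precursors, differed by -0.45 and -0.37, and sox2.L and msi1.L by 0.02 and 0.0067. The highest member was neurod4.L, a gene of early neuronal differentiation, at 0.48.

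The Notch list holds the same hes5 copies and is not separate from the progenitor list. Its 20 genes above the controls had a median of -0.24, with 13 lower and 7 higher. Over all 21 measured genes the median was -0.21, and -0.12 without the member of largest difference, hes5.1.L. Beside hes5 the lower genes included the modifier gene lfng.S at -0.42 and the ligand gene dll1.L at -0.36. The hes1 copies were at 0.27 for hes1.S and 0.14 for hes1.L, the receptor gene notch1.S at -0.03 and the ligand gene jag1.L at -0.01. Genes of differentiated neurons were higher for 26 of 33 genes above the controls and lower for 7, with a median of 0.15. uchl1.S stood at 0.68, the synaptic vesicle gene syn1.S at 0.59, the inhibitory vesicle transporter gene slc32a1.S at -0.37 and the growth-associated gene stmn2.L at -0.44. The neuronal intermediate filament gene prph was among the 15 lowest of all genes, with an intensity for prph.S of 794 in xMLTK-MO, 1975 in xSox6-MO and 622 in CoMO, and a difference for prph.L of -0.95.

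**Figure D5:**
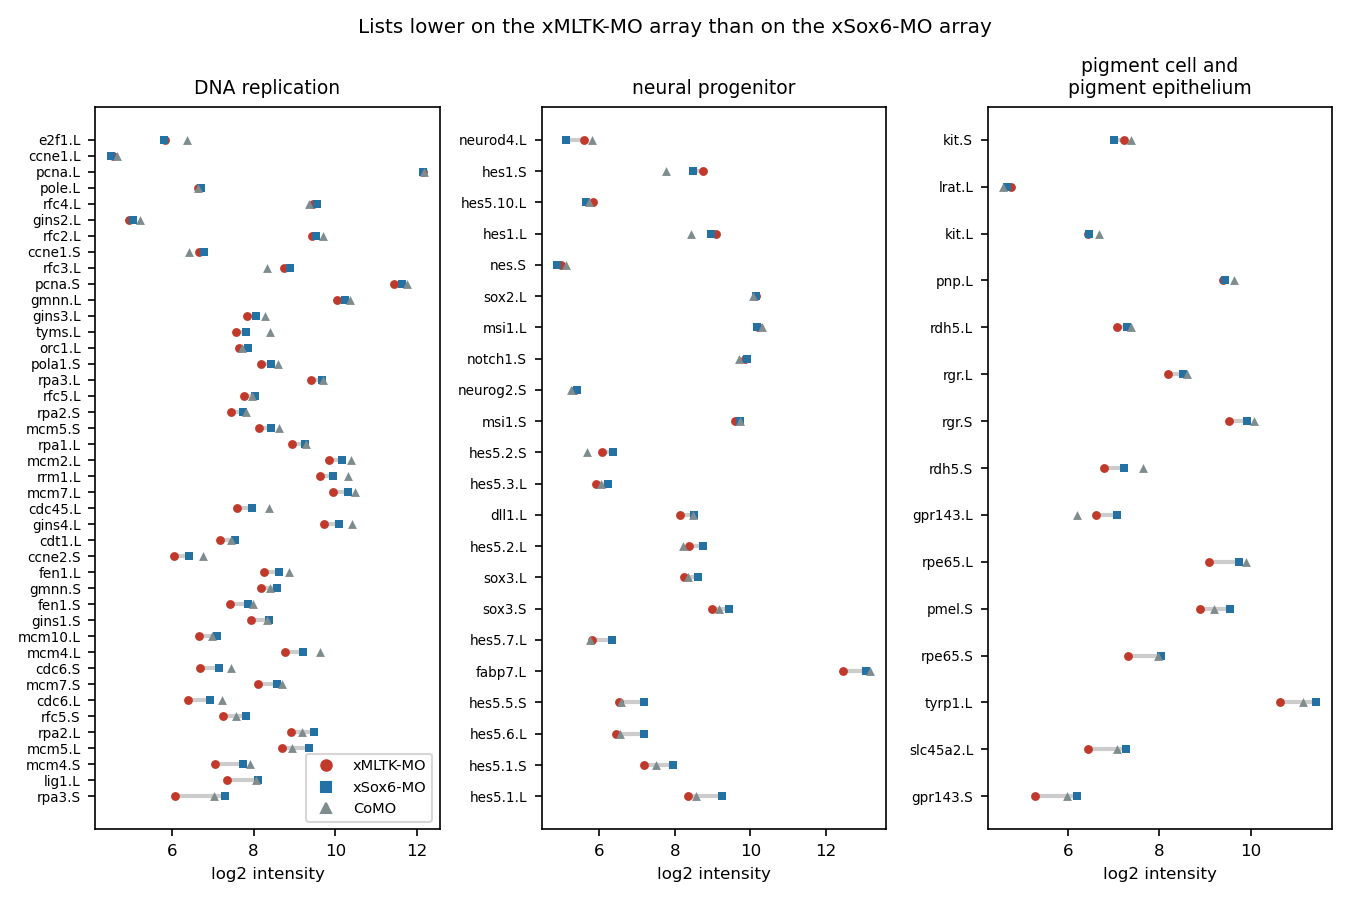
Log2 intensity of DNA replication genes (left, 42 genes), neural progenitor genes (middle, 22 genes) and pigment genes (right, 15 genes) above the negative controls, sorted by xMLTK-MO minus xSox6-MO. Red circles are xMLTK-MO, blue squares xSox6-MO and grey triangles CoMO, 1 array each. The circle lies left of the square for 39, 15 and 13 of them.

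Because MLTK stands upstream of stress MAP kinases, immediate early genes and the cascade itself were described. Of 30 immediate early genes above the controls, 25 were higher in xMLTK-MO and 5 lower, with a median of 0.30 and 1 gene past 2-fold. The AP-1 gene fos.S had an intensity of 593 in xMLTK-MO, 237 in xSox6-MO and 124 in CoMO, and was 2.5-fold higher. Its partner junb.L read 509 in xMLTK-MO, 262 in xSox6-MO and 138 in CoMO, and the stress factor gene atf3.L 161 in xMLTK-MO, 82.4 in xSox6-MO and 83.4 in CoMO. In fos.S and junb.L the order was xMLTK-MO, then xSox6-MO, then CoMO, while atf3.L was about equal in xSox6-MO and CoMO. Others were zfp36.S at 0.65, ier2.L at 0.57 and jun.L at 0.50, and myc.L stood at 0.02.

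The stress MAP kinase cascade list had 11 of 20 genes higher and 9 lower with a median of 0.05. The kinase genes map3k10.L and map3k7.S were at 0.66 and 0.58, whereas map3k7.L was at -0.08. The p38 genes mapk14.S, mapk11.S and mapk11.L were at 0.0083, -0.11 and -0.17. In the p53 and apoptosis list 19 of 24 genes past the controls read higher and 5 lower, with a median of 0.13. The stress genes sesn2.S, btg2.S and sesn1.L differed by 0.63, 0.56 and 0.49, whereas cdkn1a.L, the cell cycle inhibitor, differed by 0.13 and the exonuclease gene aen.L by 0.05. The ribonucleotide reductase subunit gene rrm2b.S had an intensity of 2269 in xMLTK-MO, 5315 in xSox6-MO and 4469 in CoMO, at least 2-fold lower in xMLTK-MO. The cytokine signal inhibitor copies socs3.S and socs3.L were 2.41-fold and 2.02-fold higher. The second, dimmer than the level filter, was just under 2-fold when centred on hybridisation controls. Their innate immune list had a median of 0.10 and 12 of 17 genes higher, and its chemokine gene cxcl8.L stood at -0.41.

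Cartilage is the tissue the study was about. Of 14 cartilage matrix genes above the controls, 11 were higher in xMLTK-MO than in xSox6-MO and 3 lower, with a median of 0.35 and 0 past 2-fold. The small secreted protein gene ucma.L had an intensity of 345 in xMLTK-MO, 225 in xSox6-MO and 433 in CoMO. A chain of collagen IX, which coats collagen II fibrils, col9a2.L, read 663 in xMLTK-MO, 434 in xSox6-MO and 1049.9 in CoMO. Chondromodulin, cnmd.L, had 1336 in xMLTK-MO, 1015 in xSox6-MO and 2247 in CoMO. In all 3 genes CoMO was the brightest array and xSox6-MO the dimmest. The collagen II gene col2a1.L, otos.L and the matrilin gene matn4.L were slightly lower in xMLTK-MO, at -0.17, -0.13 and -0.12. The homeolog otos.S was higher, at 0.46. All 15 measured genes summed to 14912 in xMLTK-MO, 13906 in xSox6-MO and 21839 in CoMO.

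Regulators of chondrocyte formation lay close together on the 2 arrays. Of 17 above the controls 7 were higher and 10 lower, with a median of -0.04 and every value between -0.23 and 0.27. sox9.L read 1469 in xMLTK-MO, 1439 in xSox6-MO and 1474 in CoMO, and sox9.S 2091 in xMLTK-MO, 2065 in xSox6-MO and 2499 in CoMO. The Sox family as a whole had 8 of 16 genes higher and 8 lower, the most negative being sox1.S at -0.55. Neural crest and pharyngeal arch genes were lower for 27 of 36 and higher for 9, but with a median of -0.06. The hindbrain and arch identity genes hoxa2.S and hoxa2.L were at -0.68 and -0.61 and dlx2.S at -0.51, against dlx3.L at 0.20 and hand2.S at 0.13. The homeologs dlx2.L and hand2.L were nearer 0, at -0.06 and -0.05.

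Metabolic lists differed by modest amounts. Of 18 sterol and fatty acid synthesis genes past the controls, 14 read higher and 4 lower, with a median of 0.30. The sterol demethylase copies cyp51a1.L and cyp51a1.S had intensities of 181 and 137 in xMLTK-MO, against 91.8 and 73.6 in xSox6-MO and 214 and 204 in CoMO. The desaturase gene sc5d.L was at least 1.89-fold higher, being below the controls in xSox6-MO. insig1.L, a sterol sensor, differed by 0.81 and hmgcs1.S, an early step of the pathway, by 0.69, whereas the elongase copies elovl5.S and elovl5.L were at -0.42 and -0.24. Glycolysis genes were higher for 21 of 25 and lower for 4, with a median of 0.17, led by ldha.S at 0.71 and pkm.S at 0.63. The homeologs ldha.L and pkm.L were at 0.11 and 0.41. In the gluconeogenesis and amino acid breakdown list, 12 of 22 genes were higher and 10 lower. The copies pck1.S and pck1.L of its entry enzyme were lower, at -0.70 and -0.63, and g6pc1.2.S, not above the controls in xSox6-MO, was at least 2.37-fold higher.

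Muscle and epidermis showed medians near 0. Fast skeletal muscle had 25 of 39 genes higher and 14 lower with a median of 0.08, slow and cardiac-type muscle 11 of 27 higher and 16 lower with a median of -0.03. The sarcomere gene tcap.S, dimmer than the level filter, was 2.31-fold higher and tpm2.L was at 0.78. The myogenic regulator copies myog.L and myog.S were at -0.62 and -0.59. Keratins and epidermis had 16 of 31 genes higher and 15 lower with a median of 0.001, a list whose name pattern also took in krtcap2.L and krtcap3.L, which encode no keratin. krt15.1.S, dimmer than the level filter, was 2.85-fold higher. krt18.1.S was 2.03-fold higher, just under 2-fold when centred on hybridisation controls, and krt12.4.S was at -0.48. The homeolog krt18.1.L differed by only 0.11.

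Medians of large complexes were near 0. They were -0.05 for 86 cytosolic ribosomal protein genes, -0.08 for 51 mitochondrial ribosomal protein genes, -0.10 for 50 proteasome genes, -0.12 for 84 spliceosome genes and 0.07 for 85 respiratory chain genes. 1 proteasome gene, psmb3.S, was 2.22-fold higher, with 1406 in xMLTK-MO, 632 in xSox6-MO and 1432 in CoMO. Reference genes had a median of -0.04 over 16 genes. Aminoacyl-tRNA synthetases had a median of 0.06 over 20 genes but a wide range. The tryptophan enzyme gene wars1.L had the most negative difference of all 7253 genes, -1.54, with 80.0 in xMLTK-MO, 233 in xSox6-MO and 159 in CoMO, and iars1.S stood at -0.68, against rars1.S at 0.89.

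Several genes past 2-fold belong to no list. Annexin A1, anxa1.2.L, a phospholipid-binding protein that restrains inflammation, had an intensity of 286 in xMLTK-MO, 63.4 in xSox6-MO and 240.2 in CoMO. The low array was xSox6-MO, and the homeolog anxa1.2.S differed by only 0.38. Transcobalamin, tcn2.S, a vitamin B12 carrier, was 3.16-fold higher and the unnamed locus LOC495995 2.77-fold higher in xMLTK-MO. Among the lower genes, igf3.L, an insulin-like growth factor gene, read 91.1 in xMLTK-MO, 257 in xSox6-MO and 160.5 in CoMO, with differences of -1.17 and -1.82 for its 2 probe sets. The chitinase-domain gene chid1.L had 149 in xMLTK-MO, 383 in xSox6-MO and 381 in CoMO, and sorcin, sri.S, a calcium-binding protein, 2517 in xMLTK-MO, 5215 in xSox6-MO and 5273 in CoMO. For chid1.L and sri.S the xSox6-MO and CoMO values were nearly equal and xMLTK-MO was low. The homeolog sri.L differed by -0.01, and the homeolog of the splicing gene snrnp40.S, itself at -1.17, by 0.03. The RNA processing gene srrt.L differed by -1.10, thdl18.S by -1.27, gtsf1.L by -1.19, lactb2.L by -1.13, c2orf68.L by -1.12, LOC100126657 by -1.11 and pld6.S by -1.06.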

How the data were processed

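Total RNA of tadpole heads was labelled and hybridised to an Affymetrix Xenopus laevis Genome 2.0 array, 1 per treatment. Each deposited value is the linear intensity of a probe set. RMA is named in the submitters' processing notes, and GeneChip operating Software 1.4 and GeneSpring GX 11.0.2 in the series' design text. RMA quantile-normalises arrays, which hides any change common to all transcripts. Depth has no meaning here, and the number of arrays limits precision.

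Of 32635 probe sets, 15505 had 1 platform symbol, 279 several and 16851 none. Symbols were updated through the gene identifier in a RefSeq table of assembly Xenopus_laevis_v10.1 for 15394 probe sets, which changed 2 symbols, and kept for 111. No coordinates are given, since no build is named for the annotation. Probe sets of a symbol were averaged as log2, giving 11303 genes with homeologs kept apart. Differences are xMLTK-MO minus xSox6-MO, with no test, since 1 array a side leaves no residual degrees of freedom. The level filter was a mean log2 intensity of 6.5 or more over the 2 arrays, an intensity of 90.5. Where a gene was not above the highest negative control on the dim array, its fold is at least the ratio of the bright value to that control.

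The text names the 15 genes of largest difference each way, list members past 2-fold and above the controls, and up to 4 members at each end of a list, with defining members, and further genes were chosen after their values were seen. The comparison and the 54 lists were chosen with earlier results of these data known. List members were matched on the symbol without .L or .S, so some genes with a further suffix or another spelling were missed. Scripts used Python 3.11.15, pandas 2.3.3 and numpy 2.4.6, and the counting was tested on simulated data. Alternatives were renewed quantile normalisation, centring on hybridisation controls, the brightest probe set, values raised to the controls, an offset, other filters, averaged homeologs and another fold.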

Additional observations from a re-analysis of the deposited data

Results flagged for a closer look

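Signal was present in probe sets that carry no gene symbol and enter no comparison above. Of 6450 such probe sets past the level filter and above the highest negative control on both arrays, 36, or 0.558%, exceeded xSox6-MO by 2-fold or more in xMLTK-MO, and 19, or 0.295%, were below it by as much. Their differences reached 3.88 on the positive side and -1.63 on the negative side.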

How the results depend on the processing

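No paired analysis was possible because each group has 1 array. No replicate could be left out for the same reason. The 38 higher and 15 lower genes became 64 and 28 with no level filter, 184 and 123 at 1.5-fold, and 86 and 45 over all 16273 probe sets above the level filter. With 32 added to each intensity before log2, 9 genes were at least 2-fold lower, and 27 of the 38 higher genes remained. Centred on hybridisation controls, whose median difference was 0.03, 33 of the 38 and 15 of the 15 remained. The alternatives were run for 47 genes, the 15 at each end and the list members past 2-fold, and not for the other genes named. These 47 kept their direction under 5 alternatives. Centred on hybridisation controls, 5 of them, apoa1.L, arr3.L, gnat2.S, krt18.1.S and socs3.L, were under 2-fold, socs3.L also with renewed quantile normalisation. With the offset 17 were, those 5 with c4a.L, g6pc1.2.S, ins.L, krt15.1.S, rpa3.S, socs3.S, tcap.S, gtsf1.L, lactb2.L, pld6.S, c2orf68.L and LOC100126657. Of list medians of 0.1 or more in size, 0 changed sign, while some nearer 0 did. Raising values to each array's highest negative control gives 0.32 by construction to any gene below both, the log2 ratio of the 2 controls. A list median that took that value says nothing of its genes under this alternative. Among such lists were some with many dim genes, and also liver, immediate early and endocrine pancreas. The last had 3, 1 and 1 genes above the controls on neither array, in that order. The gut and stomach median of 0.57 over all 9 measured genes took that value too. That median was 0.85 over those above the controls and 0.13 with the offset. The exocrine pancreas median of 0.26 over all 30 was 1.52 over the 12 above the controls and 0.06 with the offset. The complement median of 0.40 over all 17 was 0.62 over the 10 above the controls and 0.15 with the offset. Over the alternatives run, the medians of photoreceptor genes stayed between 0.50 and 0.65, of lens genes between 0.30 and 0.45, of pigment genes between -0.43 and -0.32 and of DNA replication genes between -0.34 and -0.26. The offset draws the difference of each probe set toward 0 by construction, most in dim ones. Medians over genes above the controls differ from those over all members only by leaving out the dim ones. The cause of the other shifts was not tested.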

Other observations

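Cell types and pathways not described above had medians between -0.11 and 0.13 where at least 5 genes exceeded the controls. Genes of ciliated cells were higher in xMLTK-MO for 37 of 49 and lower for 12, with a median of 0.12. Myeloid cells had a median of 0.13 over 10 genes, bone 0.13 over 5, ionocytes 0.07 over 8, erythrocytes 0.04 over 17 and fibrous connective tissue 0.04 over 17. Endothelium had a median of -0.10 over 12 genes, cement and hatching glands -0.01 over 7 and pituitary and thyroid 0.05 over 6. Metalloproteinases and their inhibitors were at 0.10 over 15 genes, the retinoid pathway at 0.11 over 17 and the Wnt pathway at -0.04 over 34. The inhibitor gene timp-1.L, spelled timp1 in the list, was missed and is not among those 15. It was 2.48-fold higher in xMLTK-MO, with 451 in xMLTK-MO, 182 in xSox6-MO and 167 in CoMO. Heat shock chaperones were lower for 16 of 22 genes, at a median of -0.08 and hsph1.L at -0.72, and those of endoplasmic reticulum stress -0.11, with 19 of 28 lower. Glia and the inner ear had 3 and 1 genes above the controls.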
